A study of Mus musculus with 11 samples.

Results

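The Trim genes encode tripartite motif proteins, most of them ubiquitin ligases. They were taken as every gene of the striatal RNA-seq table whose symbol starts with Trim, which gave 8 genes of the 1767 listed. Of these, Trim25, Trim56, Trim30a, Trim30b and Trim30d were up-regulated after NF-Y knockdown, and Trim35, Trim44 and Trim43c were down-regulated. The 3 falls were not called after TMM scaling, with DESeq2's size factors or by DESeq2. These are not separate checks, since both scalings raised the median log2 fold change of all listed genes, by 0.13 and 0.12. With a score of glial marker genes as a covariate, 0 of the 8 genes were called. Of all listed genes, 21 were then called higher and 6 lower, and the score follows the group by the way it was built. Without knockdown sample 8, 0 of the 8 were called, beside 20.7% of all listed genes called higher and 30.6% called lower. The table holds only genes already chosen for a difference between these groups.

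The study asked which genes depend on the transcription factor NF-Y in brain striatal cells. Male wild-type C57BL/6 mice received AAV1/2 in both striata at 6 weeks of age, and EmGFP-positive, PI-negative cells were sorted 3 weeks later, so that both groups carry EmGFP and a miR RNAi cassette under the ubiquitous CAG promoter. The control vector carries the non-targeting sequence NT2 (n = 6, samples numbered 3, 5, 7, 9, 21 and 23), and the knockdown vector YAYC carries sequences against NF-YA and NF-YC (n = 5, samples numbered 4, 6, 8, 10 and 22). The design text counts 6 control and 5 knockdown mice, as many as there are samples. The sort selects living cells with EmGFP, and the CAG promoter does not select a cell type. In the paper's staining, most cells with EmGFP also carried the neuronal marker NeuN. The paper reports glial genes among those that differed. It gives infection of some glia, carry-over of glia in the sort, or both, as possible reasons.

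A tripartite motif protein typically joins a RING domain, which recruits a ubiquitin-loaded E2 enzyme, to B-box zinc fingers and a coiled coil, followed by a C-terminal domain that often binds the target. Many of the genes are induced by type I interferon and act in antiviral sensing, either by switching sensors on or by restraining the signal downstream of them. Others work in the growth and turnover of cells without interferon, and a few have lost the RING domain.

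The table was built on the mouse build mm9 and holds only genes whose deposited p-value for this same contrast is under 0.05 (1767 of 1767), so that a Trim gene that did not differ was not open to be listed. The p-values below, adjusted or not, come from genes already chosen for this difference on these samples. They do not hold an error rate over all genes and are no independent evidence of a difference, and a call below means only that a gene passed within the table. A count of Trim genes that differ likewise describes the table, and the Trim genes outside it were not analysed here. Values are scaled counts, which are estimated read counts divided by the per-sample factor that the authors' log2 values imply. Each sample held 1581757 to 3141324 estimated counts in the listed genes together, which is not the library depth, and the factors ranged from 0.66 to 1.27. The targeted gene Nfyc had scaled counts of 804 to 1178 in NT2 and 569 to 927 in YAYC. Its log2 fold change of -0.32 (SE 0.14) did not pass edgeR's quasi-likelihood test (adjusted p = 0.053). By quantitative RT-PCR of the sorted cells, the paper found NF-YC reduced, while its fall in NF-YA was not significant. Nfya was not analysed here, and YAYC is used below as the name of the vector that the cells received. In bulk RNA, fewer cells of a type and less RNA per cell cannot be told apart.

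The promoters of the 3 Trim30 paralogs are shown because NF-Y binds the CCAAT box and interferon acts through a response element, and these are the member promoters that hold matches. They are the 250 bases before the annotated start, from RefSeq on build GRCm38.p6, minus strand, written 5′ to 3′. Trim30a lies at chr7:104465194-104465443, Trim30d at chr7:104507850-104508099 and Trim30b at chr7:104358647-104358896. Capitals mark matches to CCAAT, which reads ATTGG on the other strand, and to the interferon-stimulated response element (GAAA, any 2 bases, GAAA), which reads TTTCTTTTTC here.
Trim30a: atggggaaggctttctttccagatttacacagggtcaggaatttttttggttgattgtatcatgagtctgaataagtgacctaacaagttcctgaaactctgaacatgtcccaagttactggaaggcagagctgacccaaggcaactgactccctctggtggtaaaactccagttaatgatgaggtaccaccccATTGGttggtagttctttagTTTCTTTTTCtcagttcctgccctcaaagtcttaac
Trim30d: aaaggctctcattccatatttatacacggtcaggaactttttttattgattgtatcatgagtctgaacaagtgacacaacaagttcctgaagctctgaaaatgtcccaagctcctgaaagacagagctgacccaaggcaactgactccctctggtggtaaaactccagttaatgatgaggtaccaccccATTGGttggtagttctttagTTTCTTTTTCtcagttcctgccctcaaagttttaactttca
Trim30b: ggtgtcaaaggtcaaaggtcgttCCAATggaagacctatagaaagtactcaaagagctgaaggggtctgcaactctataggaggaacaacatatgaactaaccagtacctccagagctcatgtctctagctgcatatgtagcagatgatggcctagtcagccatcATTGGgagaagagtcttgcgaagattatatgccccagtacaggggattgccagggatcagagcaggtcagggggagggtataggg

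Trim30a and Trim30d were 90.8% identical over 305 aligned columns of their windows, which run from 250 bases before to 50 after the start. Both held a reversed CCAAT box 20 bases before a reversed interferon element, with the box starting 56 bases before the start in Trim30a and 61 in Trim30d. Trim30b was 49.9% identical to Trim30a, no more than Trim44 was to Trim56 (50.4%). Trim30b held 2 CCAAT boxes, 227 and 85 bases before the start, and no interferon element. A second annotated start of Trim30a had the element 2 bases after the start and no CCAAT box. The sequence just after that start was in no GENCODE M21 transcript of Trim30a, unlike in the other member windows. The windows of Trim25, Trim56 and Trim44 held neither sequence. Searched on both strands, CCAAT was present in 37.4% of all 32851 windows, the interferon element in 3.44% and both in 1.35%. The match is a description of letters and not of a site that is bound.

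**Figure D1:**
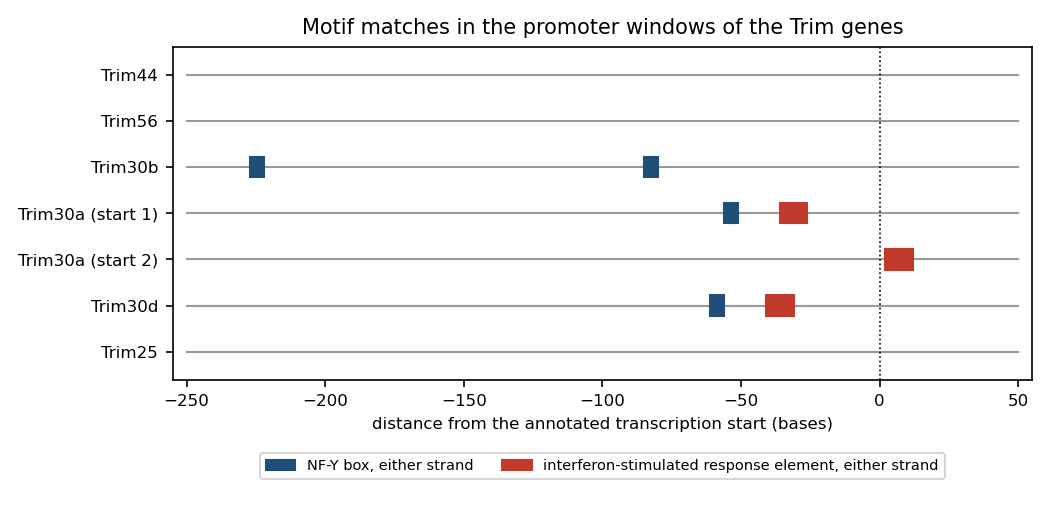
Motif matches in 7 promoter windows of 6 Trim genes, plotted by distance from the annotated start in bases. Blue blocks are CCAAT boxes (NF-Y box) and red blocks interferon-stimulated response elements, on either strand. Trim30a (start 1) and Trim30d share the same pair, and Trim44, Trim56 and Trim25 have no block.

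Trim25, a RING ligase that attaches ubiquitin to the RNA sensor RIG-I and can also act in ISG15 conjugation, lies on the plus strand at chr11:88860717-88881607 (mm9). Its scaled counts in NT2 were 996 at the lowest, 1273 at the median and 2619 at the highest, and in YAYC samples 4, 6, 8, 10 and 22 they were 2869, 2391, 2749, 1689 and 2336. Only NT2 sample 3 reached into the YAYC range, and the other 5 NT2 samples lay below every YAYC sample. The mean rose from 1488 ± 597 (SD, n = 6) to 2407 ± 461 (SD, n = 5). This was a log2 fold change of 0.69 (SE 0.23, edgeR quasi-likelihood test, adjusted p = 0.027). Without NT2 sample 3 the log2 fold change was 0.93. That the groups then no longer overlapped follows from the values above, from which the sample was picked.

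Trim56, an interferon-inducible ligase that augments signalling by cytosolic nucleic acid sensors, lies on the minus strand at chr5:137587156-137592077 (mm9). It had scaled counts of 54.2 (lowest), 72.6 (median) and 141.6 (highest) in NT2 and of 133, 136, 212, 100.3 and 141.6 in the 5 YAYC samples in order of their numbers. YAYC sample 8 stood above every other sample, YAYC 22 was level with NT2 sample 3, and the remaining YAYC samples lay among NT2 samples 3 and 23 or just below them. From a mean of 87.3 ± 35.1 (SD, n = 6) it rose to 145 ± 40.8 (SD, n = 5), and the log2 fold change was 0.73 (SE 0.29, edgeR quasi-likelihood test, adjusted p = 0.040). Leaving out YAYC sample 8 gave 0.55 and an adjusted p of 0.096 by the same edgeR test.

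The Trim30 genes are neighbouring mouse paralogs on the minus strand of chromosome 7, and Trim30a is known to be induced by interferon and to restrain NF-κB signalling from Toll-like receptors. In mm9 they lie at chr7:111503896-111518398 (Trim30b), chr7:111557540-111613707 (Trim30a) and chr7:111618529-111656363 (Trim30d), with 39141 bases between the first pair and 4821 between the second. All 3 were up-regulated.

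Trim30a had NT2 scaled counts of 1623 (lowest), 3337 (median) and 5368 (highest). In YAYC samples 4, 6, 8, 10 and 22 it had 5874, 5878, 6699, 3806 and 6081. Of the 5 YAYC samples, 4 lay above the highest NT2 sample, while YAYC 10 fell below NT2 samples 3, 21 and 23. Its mean was 3417 ± 1457 (SD, n = 6) in NT2 and 5668 ± 1094 (SD, n = 5) in YAYC, giving a log2 fold change of 0.73 (SE 0.27, edgeR quasi-likelihood test, adjusted p = 0.036).

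Trim30d followed the same order of samples closely. It had 722, 1188 and 1849 scaled counts at the lowest, median and highest NT2 sample, and 1914, 2019, 2197, 1336 and 1944 in the YAYC samples. Again 4 YAYC samples exceeded every NT2 sample and YAYC 10 did not. The mean rose from 1207 ± 461 (SD, n = 6) to 1882 ± 325 (SD, n = 5), with a log2 fold change of 0.64 (SE 0.24, edgeR quasi-likelihood test, adjusted p = 0.036).

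Trim30b had the largest log2 fold change among the 5 members that rose. Its NT2 scaled counts were 92.2 (lowest), 188 (median) and 263 (highest), and the YAYC samples had 239, 366, 559.8, 236 and 455. YAYC samples 6, 8 and 22 were above all NT2 samples, and YAYC 4 and 10 lay within the range of the NT2 samples. Unlike for Trim25 and the other paralogs, NT2 sample 3 was not high (187 scaled counts). The mean went from 195 ± 62.9 (SD, n = 6) to 371 ± 140.1 (SD, n = 5), which was 1.90-fold and a log2 fold change of 0.93 (SE 0.29, edgeR quasi-likelihood test, adjusted p = 0.024).

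Because the paralogs are similar, their reads may be exchanged. Between the longest coding transcripts of GENCODE M21, identity was 73.8% for Trim30d with Trim30a, 55.4% for Trim30a with Trim30b and 50.4% for Trim30d with Trim30b. Transcripts of unrelated genes were not aligned for comparison. Of the 50-base windows, the length of a read, 6.53% of Trim30a were also found in Trim30d, 8.29% of Trim30d were found in other genes, and 1.11% of Trim30b were. None of the 11 estimated counts of Trim30a or of Trim30b was whole within 0.01, against 6 of 11 for Trim30d. Whole counts did not follow the share of windows found in other genes. Trim25 had 0 of 11 with 0.307% of its windows shared, Trim56 1 of 11 with 0.664%, and Trim43c 8 of 11 with 59.3%. How the authors shared reads between similar genes is not given in the sources used here. The split between Trim30a and Trim30d is therefore uncertain to the extent of the windows that they share.

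The ratio of counts within a sample does not depend on the scaling. Trim30a over Trim30d was 2.25 to 3.54 (median 2.91) in NT2 and 2.85 to 3.13 (median 3.05) in YAYC, so the YAYC values lay inside the NT2 range. Trim30a over Trim30b varied more, from 10.03 to 28.7 (median 17.4) in NT2 and from 11.97 to 24.6 (median 16.1) in YAYC. After the mean of each group was subtracted, Trim30a and Trim30d differed by a root mean square of 0.17 on the log2 scale over the 11 samples, Trim56 and Trim30d by 0.20, and Trim30a and Trim30b by 0.43. These are descriptions over shared libraries.

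**Figure D2:**
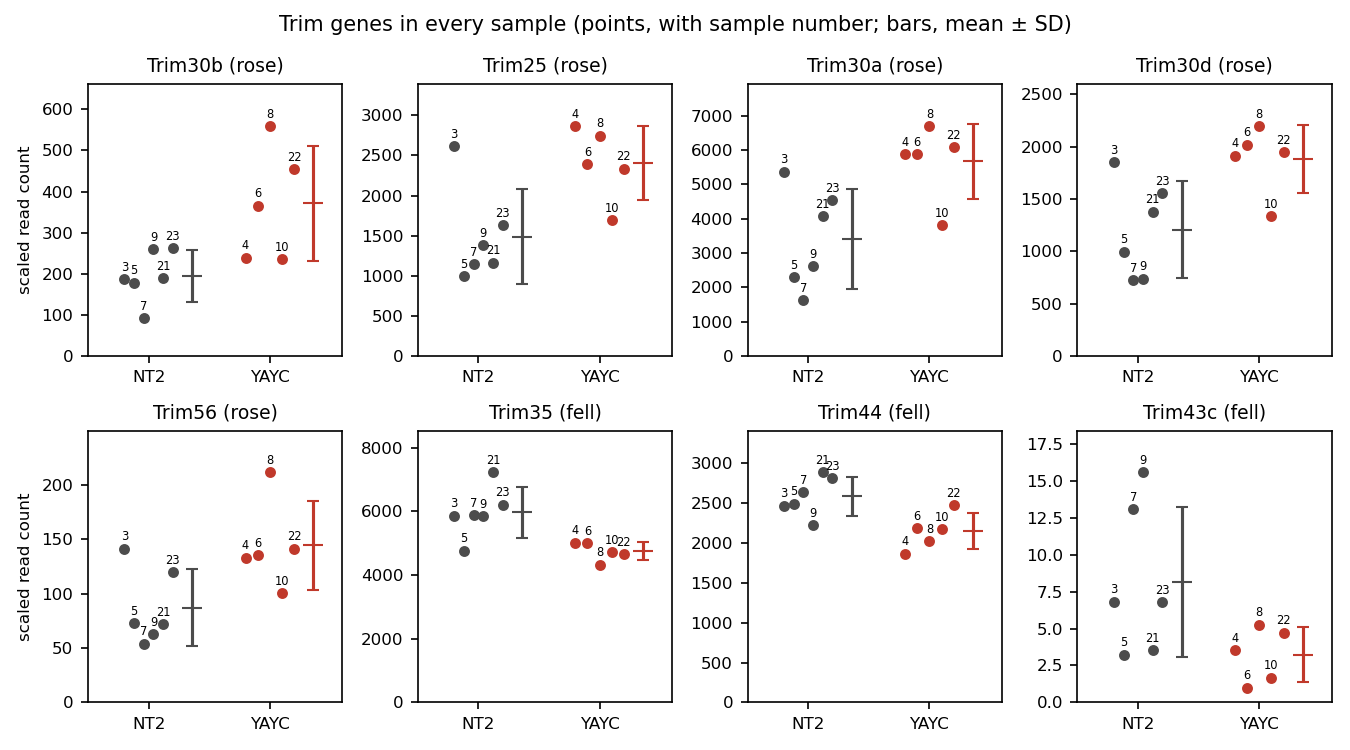
Scaled read count of each Trim gene by group (6 NT2 and 5 YAYC samples, points with sample numbers, bars for mean ± SD), with linear axes from 0. In Trim30a and Trim30d 4 YAYC samples lie above all NT2 samples and YAYC 10 does not, and in every gene the groups overlap. The 3 genes marked as fallen did not pass the test after TMM scaling.

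Trim35, a RING ligase also known as Hls5 and described in blood cell lineages, lies on the plus strand at chr14:66915862-66930261 (mm9). It had NT2 scaled counts of 4769 (lowest), 5866 (median) and 7221 (highest) and YAYC values of 5013, 5009, 4326, 4725 and 4662. All NT2 samples except NT2 5 lay above every YAYC sample. Its mean fell from 5963 ± 787 (SD, n = 6) to 4747 ± 285 (SD, n = 5). The log2 fold change was -0.33 (SE 0.11, edgeR quasi-likelihood test, adjusted p = 0.026), and -0.19 (adjusted p = 0.11 by the same edgeR test) after TMM scaling.

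Trim44 has no RING domain and carries a zinc finger of the kind that binds ubiquitin, as in deubiquitinating enzymes. It lies on the minus strand at chr2:102140276-102241057 (mm9). NT2 samples had scaled counts of 2221 (lowest), 2566 (median) and 2885 (highest), and YAYC samples had 1867, 2189, 2024, 2176 and 2477. Of the YAYC samples, 4 lay below every NT2 sample and YAYC 22 overlapped with NT2 samples 3 and 9. The mean of 2587 ± 245 (SD, n = 6) fell to 2147 ± 227 (SD, n = 5), and the log2 fold change was -0.27 (SE 0.099, edgeR quasi-likelihood test, adjusted p = 0.035). After TMM scaling it was -0.13 (adjusted p = 0.21 by the edgeR test). Trim44 and Trim35 differed by a root mean square of 0.16 on the log2 scale after the group means were subtracted.

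Trim43c, a mouse copy of a family known from the preimplantation embryo, lies on the plus strand at chr9:88734002-88743028 (mm9) and was close to the limit of detection, with at most 18.5 estimated counts in any sample. Its NT2 scaled counts were 3.22 (lowest), 6.80 (median) and 15.6 (highest), and its YAYC values were 3.55, 0.99, 5.27, 1.68 and 4.71. YAYC samples 6 and 10 were below all NT2 samples, and the NT2 samples 7 and 9 stood above the rest. The mean was 8.17 ± 5.07 (SD, n = 6) in NT2 and 3.24 ± 1.86 (SD, n = 5) in YAYC, with a log2 fold change of -1.35 (SE 0.56, edgeR quasi-likelihood test, adjusted p = 0.044). In the exact permutation test it did not pass (two-sided p = 0.061), and after TMM scaling the edgeR test gave -1.22 (adjusted p = 0.071). Of its 50-base windows, 59.3% were also found in other genes, including 35.2% in Trim43b and 27.9% in Trim43a, and 9330159M07Rik overlaps it on the opposite strand by 7955 bases (GENCODE M21). Whether the counting used strand is not given in the sources used here, and the Trim43c value is uncertain for these reasons.

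Levels can be compared between genes only per length of transcript, using the longest coding transcript. In NT2, Trim35 came first with 1621 ± 214 scaled counts per kilobase (SD, n = 6) and Trim30a second with 906 ± 386. Trim44 (461 ± 43.7) and Trim30d (368 ± 141) had overlapping spreads, and Trim25 (266 ± 107) overlapped with Trim30d. Trim30b (45.5 ± 14.7), Trim56 (9.41 ± 3.78) and Trim43c (4.11 ± 2.55) followed. For Trim56 the transcript used has 9279 bases, longer than the 4922 bases that the gene spans in mm9. Its level per kilobase is understated if the counting used that span. In YAYC, Trim30a (1503 ± 290 per kilobase, SD, n = 5) and Trim35 (1291 ± 77.4) overlapped, and Trim25 (430.5 ± 82.5) and Trim44 (382.5 ± 40.4) did as well. The ratio of Trim25 to Trim35 counts, which needs no scaling, was 0.161 to 0.447 (median 0.223) in NT2 and 0.357 to 0.635 (median 0.501) in YAYC, where only NT2 sample 3 lay within the YAYC range.

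Over the family, 5 of 8 members were called higher in YAYC at an adjusted p under 0.05, beside 32.2% of all listed genes, and 3 of 8 were called lower, beside 47.3%. The median log2 fold change was 0.67 over the 8 members and -0.27 over all listed genes. The 5 members that rose had a median of 0.73 and the 3 that fell one of -0.33. The groups did not overlap in 0 of the 5 members that rose, beside 6.90% of all genes that lay wholly higher in YAYC, and in 0 of the 3 that fell, beside 6.11% that lay wholly lower. All 5 YAYC samples lay on 1 side of the NT2 median in 8 of 8 members, beside 88.2% of all listed genes. TMM takes most genes as unchanged, which a table chosen by p-value does not meet. TMM scaling raised the median log2 fold change of all genes by 0.13, and DESeq2's size factors raised it by 0.12. With TMM, edgeR called the 5 members that rose (0.76 to 1.05), beside 39.0% of all genes called higher. It called 0 of the 3 that fell, beside 21.3% called lower, with 1 of the 3 at an unadjusted p under 0.05. DESeq2 also called 5 higher and 0 lower.

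In the two-sided exact permutation test over 462 divisions of the samples, 7 of the 8 members had a p under 0.05, beside 89.0% of all listed genes. The values were 0.0087 for Trim35, 0.015 for Trim44, 0.022 for Trim30b, 0.026 for Trim25, 0.030 for Trim56, 0.037 for Trim30a and 0.039 for Trim30d. The sample numbers form a run from 3 to 10 and a run from 21 to 23, and the labels do not say what they mean. Within the samples numbered 3 to 10 (4 against 4, 70 divisions, where the smallest possible two-sided p is 0.029), Trim44 had an exact permutation p of 0.029 and the other 7 members had p of 0.057 to 0.11, all with the same direction as over all samples. The run from 21 to 23 holds only 1 YAYC sample and gives no value. With the run as a covariate, edgeR's quasi-likelihood test called 5 members higher and 2 lower, and Trim43c was at an adjusted p of 0.053. Of all 1767 listed genes, 497 were called higher and 726 lower in that fit.

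The calls rested on few samples. When YAYC sample 8 was left out, 0 of 8 members passed edgeR's quasi-likelihood test after adjustment, with adjusted p from 0.051 to 0.096, and 7 of 8 had an unadjusted p under 0.05. Of all listed genes, 20.7% were still called higher and 30.6% lower without that sample. The number called higher also fell to 1 without YAYC 4, to 2 without NT2 5, NT2 7, NT2 9, YAYC 6 or YAYC 22, and to 4 without NT2 21. Without NT2 3, NT2 23 or YAYC 10 it was 5. The number called lower was 3 without NT2 3 or NT2 5, 2 without NT2 9, NT2 21 or YAYC 22, and 1 without NT2 7, NT2 23, YAYC 4, YAYC 6 or YAYC 10. Over the 11 samples left out in turn, 20.1% to 32.1% of all listed genes were called higher and 27.9% to 44.7% lower. No Trim log2 fold change changed sign when any sample was left out, as in Trim30b (0.73 to 1.05), Trim25 (0.60 to 0.93) and Trim35 (-0.39 to -0.27).

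**Figure D3:**
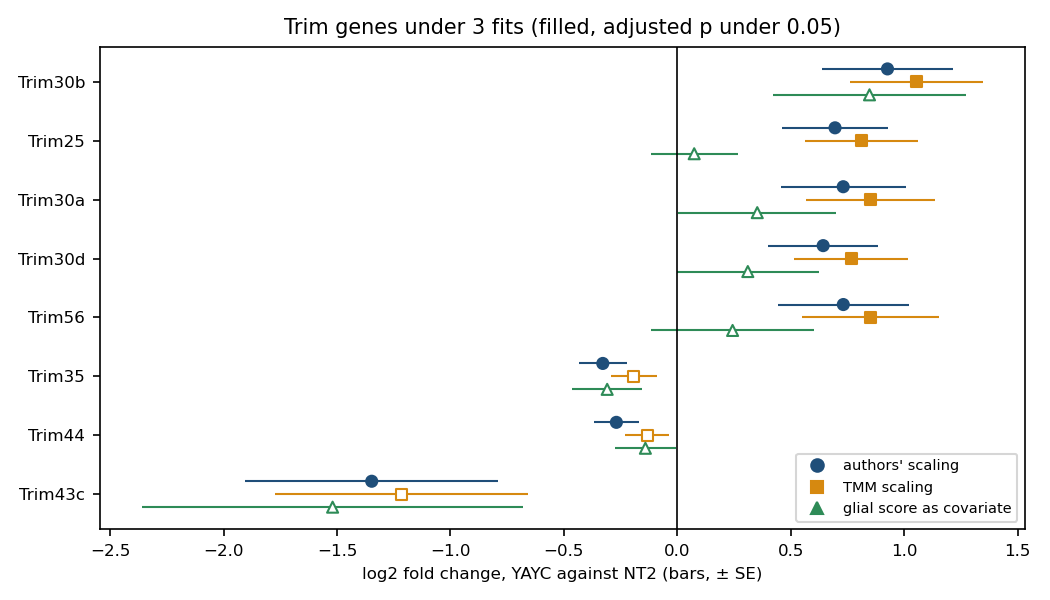
Log2 fold change of YAYC against NT2 for each Trim gene (± SE) in 3 edgeR fits, with filled symbols for an adjusted p under 0.05. With the authors' scaling all 8 genes are filled, with TMM scaling the 5 that rose are, and with the glial score added as a covariate none is, Trim25 moving to 0.07 and Trim30b to 0.85.

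The listed markers of other cell types moved with the groups. Of 36 astrocyte, oligodendrocyte and microglia markers, 8 were listed. These were 6 of 12 astrocyte markers (Glul, Fgfr3, Gja1, Aldoc, Gjb6 and Slc1a3), 1 of 12 for oligodendrocytes (Ugt8a) and 1 of 12 for microglia (P2ry12). The glial score therefore rests mostly on astrocyte genes. All 8 were called lower in YAYC, beside 47.3% of all listed genes, with log2 fold changes from -1.69 to -0.29. Their summed scaled count was 54946 to 132649 in NT2 and 45790 to 59547 in YAYC. The score, the mean of their centred log2 values, was 0.43 ± 0.59 (SD, n = 6) in NT2 and -0.51 ± 0.32 (SD, n = 5) in YAYC. NT2 sample 3 had the lowest NT2 score, -0.49, and was also the highest NT2 sample for Trim25, Trim56, Trim30a and Trim30d. The other 5 NT2 scores all lay above every YAYC score, so group and score can hardly be told apart.

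With the score as a covariate, 0 of 8 Trim genes passed edgeR's quasi-likelihood test, 0 of 8 had an unadjusted p under 0.05, and 21 listed genes were called higher and 6 lower. The log2 fold changes became 0.85 for Trim30b, 0.35 for Trim30a, 0.31 for Trim30d, 0.24 for Trim56 and 0.07 for Trim25, and -0.31 for Trim35, -0.14 for Trim44 and -1.52 for Trim43c. The 8 markers are themselves listed for their difference between the groups, so the score follows the group by the way it was built, and the size of these shifts does not measure a dependence on glial cells. Of 11 vascular markers, 8 were listed and all were called lower, beside 47.3% of all listed genes. The part of other cell types in the Trim results was not tested beyond this covariate. Markers of neurons (0 of 8 listed) and of striatal projection neurons (0 of 14) were not analysed here, so these counts do not check the identity of the sorted cells.

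**Figure D4:**
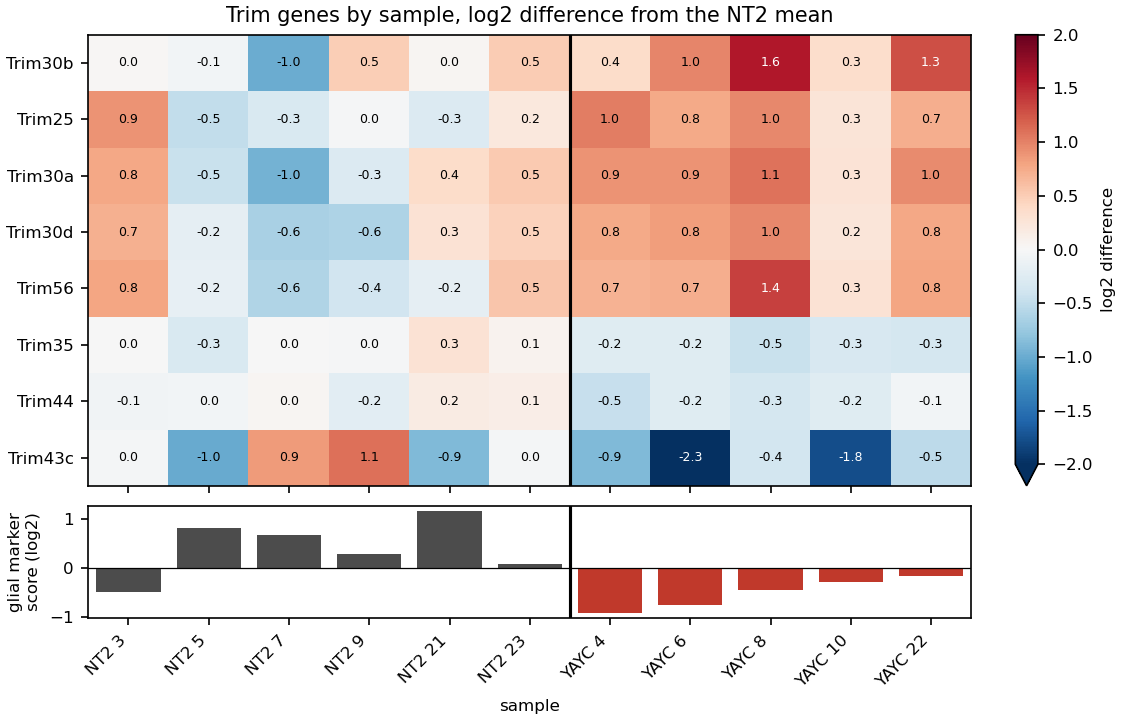
Log2 difference of each Trim gene from its NT2 mean in the 11 samples (upper panel, printed in each cell, colours limited at -2 and 2) above the glial marker score of the sample (lower panel, log2). NT2 sample 3 has values like those of YAYC samples in Trim25, Trim56, Trim30a and Trim30d and a score of -0.49, and YAYC 10 has the lowest YAYC values in the 5 genes that rose.

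The genes around these ligases were read from lists of their pathways. Of 12 genes of RIG-I sensing, 5 were listed. Ddx58, which encodes RIG-I, the substrate of Trim25, was called higher with a log2 fold change of 1.004, as were the related Dhx58 (0.87) and the interferon regulator Irf7 (1.26). Traf6, a ligase of the same signalling chain, was called lower (-0.45), and the sensor Ifih1 was not called (0.77, adjusted p = 0.060 by edgeR's quasi-likelihood test). Of 5 genes of ISG15 conjugation, the modifier Isg15 (1.01) and the protease Usp18 (1.06) were listed and called higher. Of 10 genes of the interferon receptor and JAK-STAT chain, only the feedback inhibitor Socs3 was listed (0.38, called higher). Of 34 E1 and E2 enzymes, which load ubiquitin for all RING ligases, only Uba6 was listed, and it was not called (-0.29, adjusted p = 0.055 by the edgeR test). None of 7 tripartite motif genes with other names was listed. All 5 Trim genes that rose, and none that fell, are on a list of 17 names of interferon-inducible or antiviral Trim genes. That list came from background knowledge and was chosen with earlier results of these data known. The split is therefore a description and no independent evidence on direction.

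The genes most like Trim30b and Trim35, the members with the smallest p in each direction, were sought by the root mean square difference of log2 values over the 11 samples after subtraction of the group means. For Trim30b, whose own spread was 0.50, they were Speer4e (0.21), the antiviral gene Mx1 (0.25) and Zfp760 (0.32). Speer4e and Mx1 were called higher in YAYC, like Trim30b, and Zfp760 (log2 fold change -0.73) was called lower. For Trim35, with a spread of 0.14, they were the phosphatase subunit gene Ppp2ca (0.093), Cand1 (0.096), a regulator of cullin ligases, and 4933439F18Rik (0.098). Like Trim35, Ppp2ca (log2 fold change -0.26) and 4933439F18Rik (-0.35) were called lower, and Cand1 (-0.20) was not called (adjusted p = 0.058 by edgeR's quasi-likelihood test).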

How the data were processed

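Striatal RNA-seq of 6 NT2 and 5 YAYC samples was analysed. The cDNA was amplified with SMARTer, made into Nextera XT libraries and read as single 50-base reads. Strand NGS was used by the authors for counting, and the deposited estimated counts per gene are not normalized, with 54.3% of them whole within 0.01. The deposited log2 values are log2 counts, scaled per sample and centred per gene by the authors. The build mm9 comes from the submitters' processing notes, and the aligner is not given in the sources used here. The deposited p-value of the authors' comparison was read only to see how the table was chosen. The deposited columns of direction and fold change were not used.

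Groups came from the labels. The authors' scaling factors were read from the 1247 genes in which all samples had over 50 counts (largest residual 9.06e-07). Estimated counts of all 1767 genes were rounded and fitted with edgeR 4.0.16 (R 4.3.3; glmQLFit, glmQLFTest) with group as the only term, and p-values were Benjamini-Hochberg adjusted over all of them. Standard errors are the size of the log2 fold change over the square root of F. Permutation tests used log2(scaled count + 0.5). No pair of samples of a group agreed within sampling noise (chi-square per degree of freedom 21.5 to 170.9 over 25 pairs), and the fit was tested on simulated data. Alternatives were TMM, DESeq2 size factors, DESeq2 1.42.0, a highest count of at least 200, a fold threshold of 1.2, a robust fit, a pseudocount of 1, the covariates and leaving out each sample. The genes named are all Trim genes of the table, the targets of the vector, members of the lists, the 3 genes nearest to Trim30b and to Trim35, and genes that share sequence with a member. The members and lists were chosen with earlier results of these data known. Promoters came from RefSeq (GRCm38.p6; 6 of 8 members matched, not Trim35 or Trim43c), transcripts from GENCODE M21, and sequences were aligned with Biopython 1.88. Proteins were not compared.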

Additional observations from a re-analysis of the deposited data

Results flagged for a closer look

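The scaled count of Trim30a in YAYC sample 10 was 3806, and the other 4 YAYC samples lay between 5874 and 6699. The gap from YAYC 10 to the nearest other sample was 0.715 of the range of the group, above Dixon's 95% critical value of 0.71 for 5 samples. Of the 16 groups tested (8 Trim genes in 2 groups) this was the only such case, and chance gives about 1 in 20. Without YAYC 10, Trim30a and Trim30d were the only Trim genes whose groups did not overlap. This follows from YAYC 10 being the only YAYC sample below the highest NT2 sample in both genes. The share of all listed genes without overlap in that setting is not given here.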

How the results depend on the processing

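No paired analysis was possible because NT2 and YAYC share no sample number. No Trim gene changed direction under any alternative. The 5 members called higher remained 5 under TMM, DESeq2 size factors, DESeq2, the fold threshold of 1.2, the run covariate and the robust fit, and were 4 with a highest count of at least 200, where Trim56 and Trim43c were not tested. The 3 called lower became 0 with TMM (edgeR, 1 at an unadjusted p under 0.05), 0 with DESeq2 size factors (1) and 0 with DESeq2 (1), and 2 with the run covariate or the count minimum. With the glial score as a covariate, 0 were called higher and 0 lower. Leaving out each sample in turn gave 0 to 5 Trim genes called higher, 0 to 3 called lower and 0 to 2 without overlap, against 0 with all samples. The gene without overlap was Trim25 without NT2 3, Trim35 without NT2 5 and Trim44 without YAYC 22. In each case the sample left out was the only one of its group that overlapped. The share of all listed genes without overlap is given only for all samples. Of all listed genes, 569 were called higher and 836 lower, against 689 and 377 with TMM, 685 and 413 with DESeq2 size factors, 679 and 459 with DESeq2, 381 and 742 with the count minimum, 21 and 6 with the glial score, and 355 to 568 and 493 to 790 when a sample was left out. Counts limit Trim43c and Trim56 most.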
